A study of Mus musculus with 6 samples.

Results

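Retinoic acid is the active form of vitamin A, and 10 mouse genes that make it, bind it, sense it or destroy it were followed here across sorted cells of the embryonic aorta region. They are the synthetic enzymes Aldh1a1, Aldh1a2 and Aldh1a3, the degrading enzymes Cyp26a1 and Cyp26b1, the nuclear receptors Rara, Rarb and Rarg, and the cellular binding proteins Crabp1 and Crabp2. Members were chosen by symbol, and each was read from a probe set that the platform annotation gives to 1 gene only. All 10 had such a probe set, 1 each, out of 19937 genes measured on the arrays.

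The tissue was the aorta/gonad/mesonephros (AGM) region, dissected from embryos of the strain CD1 at E11.5, where E stands for embryonic day. Both populations were sorted from collagenase-digested tissue as CD31-positive cells without CD45, a leukocyte antigen, or Ter119, an antigen of red cells. One population, c-kit-positive, carried c-kit, the stem cell factor receptor, and the other, c-kit-negative, did not. Each was measured on 3 arrays from total RNA, all labelled as time T0, and the labels call the replicates biological without saying how embryos were pooled, so a p-value here measures array-to-array spread, which may be technical.

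Retinol from the circulation is taken up by cells and oxidised in a reversible step to retinal, which the Aldh1a enzymes convert irreversibly to retinoic acid. The acid enters the nucleus, with Crabp2 as a carrier, and binds receptors of the Rar family, which sit on DNA with Rxr partners. Cyp26 enzymes oxidise it to inactive products. In the embryonic aorta region, retinoic acid signalling in the vascular wall is known to be required for stem cell emergence, and in the neighbouring gonad the acid is a known inducer of meiotic genes in germ cells.

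Kit itself was at 9.55 ± 0.03 on the c-kit-positive arrays and 8.22 ± 0.04 on the c-kit-negative arrays (log2, SD, n = 3 each), higher in the cells sorted for c-kit. The difference was 2.51-fold, and every c-kit-negative value of Kit also lay above the array medians. Pecam1, which encodes CD31, was at 9.13 ± 0.16 on the c-kit-positive arrays and 10.02 ± 0.02 on the c-kit-negative arrays. Ptprc, which encodes the CD45 that the sort selected against, read 8.52 ± 0.13 on c-kit-positive arrays and 8.75 ± 0.60 on c-kit-negative arrays, where replicate 1 was highest at 9.40. All 6 of its values lay above the array medians. Array medians over all probe sets lay between 5.42 and 5.52 on the log2 scale. The number of arrays limits the precision.

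Of the 10 genes, 3 were lower in c-kit-positive cells, each of another role: the carrier Crabp2 by 6.36-fold, the receptor Rarb by 2.42-fold and the synthetic enzyme Aldh1a2 by 2.15-fold. No member was higher. Of the 10, 5 had an unadjusted p under 0.05 in limma, 0 of them with the higher level in c-kit-positive cells. Over all 19937 genes, 4196 had such a p, in either direction. The 3 calls among 10 members stand beside 4.70% of all genes called lower and 2.71% called higher (limma, Benjamini-Hochberg adjusted p under 0.05 over all genes), or 7.41% called in either direction. All 10 members had the lower mean in c-kit-positive cells, as did 7760 of the 19937 genes. The members' median difference was -0.33 on the log2 scale, against 0.07 over all genes. In 5 of the 10 the values of the populations did not overlap, where 26.8% of all genes were so separated and 10.6% of all genes had the c-kit-positive values lower. Synthesis, binding and receptors each had 1 member past the threshold and the 2 degrading enzymes had 0, but no test compared the roles. On the same arrays pan-endothelial and mesenchymal markers were lower and germ cell markers higher in c-kit-positive cells, by medians of -2.23, -1.07 and 1.33, and their part in these differences was not tested. The germ cell list includes Kit, the gene of the sort. In sorted bulk samples, fewer cells of a type cannot be told apart from less RNA per cell.

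**Figure D1:**
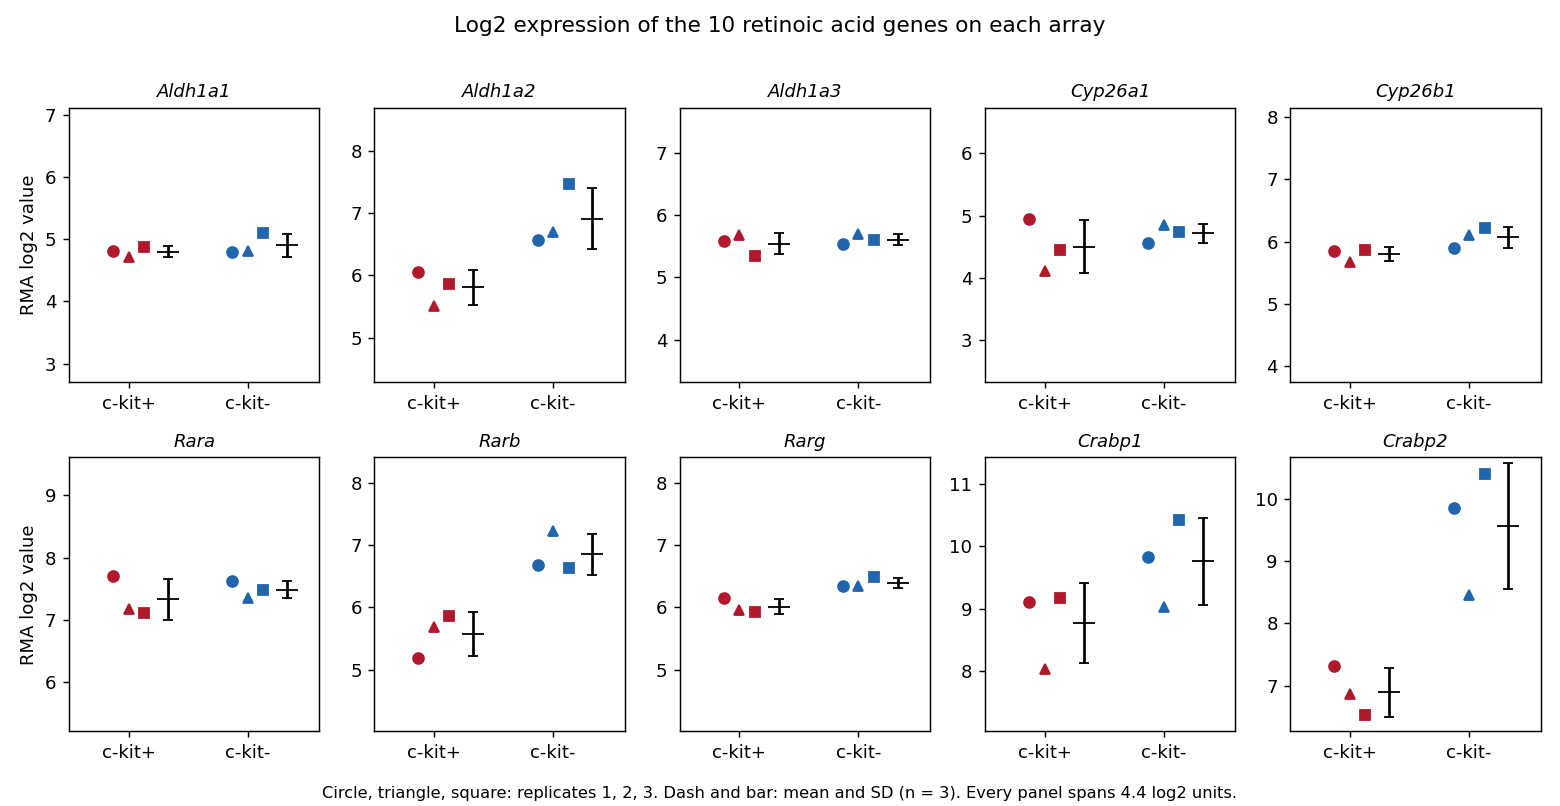
RMA log2 values (y axis) of the 10 genes on each array, with c-kit-positive arrays in red at the left and c-kit-negative arrays in blue at the right. Symbols mark replicates 1, 2 and 3, and the dash and bar give the mean and SD (n = 3); the populations are farthest apart for Crabp2, at 6.53 to 7.31 on c-kit-positive and 8.45 to 10.40 on c-kit-negative arrays.

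Among the synthetic enzymes, Aldh1a2, the main source of retinoic acid in the mid-gestation embryo, was at 6.05, 5.51 and 5.85 on the c-kit-positive arrays, against 6.56, 6.70 and 7.47 on the c-kit-negative arrays (log2, replicates 1, 2 and 3). Every c-kit-positive value lay below every c-kit-negative value, and c-kit-negative replicate 3 stood highest. The difference was -1.10 ± 0.25 (SE), with a 95% confidence interval of 1.44-fold to 3.22-fold lower and an adjusted p of 0.0363 (limma). Intervals are those of the single gene, not adjusted for the number of genes. That call was close to the threshold. With 1 array left out in turn it passed in 1 of 6 fits, the one without c-kit-negative replicate 1 (adjusted p = 0.0409, limma). The adjusted p was 0.0597, 0.107 and 0.0885 without c-kit-positive replicates 1, 2 and 3, and 0.0643 and 0.0642 without c-kit-negative replicates 2 and 3 (limma). The difference ran from -1.28 to -0.82 over those 6 fits.

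Aldh1a1, the family member of the eye, gut and later of many stem cell compartments, was at 4.81, 4.71 and 4.88 on the c-kit-positive and 4.79, 4.80 and 5.10 on the c-kit-negative arrays. The ranges overlapped and all 6 values lay below the array medians. The difference of -0.10 had a 95% confidence interval of -0.43 to 0.23 (adjusted p = 0.762, limma). Aldh1a7, a close copy of Aldh1a1 that the same probes may read in part, was at 4.09 ± 0.23 on the c-kit-positive arrays and 3.81 ± 0.09 on the c-kit-negative arrays, and that sharing was not tested. Aldh1a3, a synthetic enzyme of the nose and eye, was at 5.59, 5.67 and 5.35 on the c-kit-positive arrays and 5.53, 5.70 and 5.59 on the c-kit-negative arrays. Its populations overlapped as well, with a difference of -0.07 and an interval of -0.40 to 0.25 (adjusted p = 0.824, limma).

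The cellular binding proteins differed more between replicates than most members did. Crabp2, which delivers retinoic acid to the receptors, was at 7.31, 6.86 and 6.53 on the c-kit-positive arrays, against 9.85, 8.45 and 10.40 on the c-kit-negative arrays. The populations were apart by 1.14 at their nearest values, although the c-kit-negative arrays ranged over 1.96 among themselves, with replicate 2 the lowest. The difference was -2.67 ± 0.45 (SE), a 6.36-fold lower level with a 95% interval of 3.12-fold to 12.9-fold (adjusted p = 0.00932, limma). It passed in each of the 6 fits with 1 array left out, at -3.23 without c-kit-negative replicate 2 and -2.25 without c-kit-negative replicate 3.

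Crabp1, a binding protein of neural crest and mesenchyme that is linked to holding and breaking down the acid, was at 9.10, 8.03 and 9.17 on the c-kit-positive arrays and 9.82, 9.03 and 10.43 on the c-kit-negative arrays. Replicate 2 was the lowest in both populations, and the ranges overlapped, since c-kit-negative replicate 2 lay within the c-kit-positive range. The difference was -0.99 ± 0.40 (SE), with an interval of -1.90 to -0.08, and did not pass (adjusted p = 0.196, limma). Its replicates ranged over 1.14 among c-kit-positive and 1.40 among c-kit-negative arrays, wider than the difference between the means. With replicate number as a block in the fit the difference passed (adjusted p = 0.017, limma). The labels do not say that replicate numbers mark a shared litter or day.

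Rarb, the receptor gene that is itself induced by retinoic acid, was at 5.18, 5.68 and 5.85 on the c-kit-positive arrays, against 6.68, 7.23 and 6.64 on the c-kit-negative arrays. The highest c-kit-positive value lay 0.78 below the lowest c-kit-negative value. The difference was -1.28 ± 0.23 (SE), a 2.42-fold lower level with a 95% interval of 1.69-fold to 3.47-fold (adjusted p = 0.0121, limma). The call held in each of the 6 fits with 1 array left out, where the adjusted p ran from 0.0181 to 0.0358 (limma).

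Rarb and Cyp26a1 are the textbook direct targets within the pathway, and their promoters are shown because both carry a direct repeat with a spacer of 5 bases (DR5), the classical retinoic acid response element. The search used 4 half-sites: the consensus AGGTCA, its common variant AGTTCA, and those with a leading guanine, which are GGGTCA and also GGTTCA. Any 2 of them in the same orientation, separated by 5 bases, counted as the element, on both strands. Each line gives the 100 bases before the RefSeq start of the gene on its own strand (GRCm38.p6), 5′ to 3′, with the element in capitals.
Rarb: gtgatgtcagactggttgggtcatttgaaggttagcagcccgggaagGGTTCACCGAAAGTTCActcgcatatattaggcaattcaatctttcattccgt
Cyp26a1: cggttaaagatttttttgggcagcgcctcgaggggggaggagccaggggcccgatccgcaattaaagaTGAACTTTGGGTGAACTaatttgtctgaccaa

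The Rarb stretch is chr14:16575477-16575576 on the minus strand, and its element spans bases 53 to 37 upstream of the start, with half-sites GGTTCA and AGTTCA read on the gene's strand. The Cyp26a1 stretch is chr19:37697708-37697807 on the plus strand, and its element spans bases 32 to 16 upstream, with the half-sites read on the opposite strand. Such an element was found in 32 of 32851 RefSeq promoter windows of the same 300 bases (250 before the start and 50 after it), or 0.0974%. Of the 10 members, 8 were in the promoter table with 13 windows, and the element was in 2 of these windows, those shown. Both genes were textbook targets before the search, so this count was foreseeable and was not tested against the share of all windows. Crabp2 and Aldh1a3 were not matched. A match is a description of the letters and does not show binding.

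Of the pair that carries the element, Rarb was lower in c-kit-positive cells, as above, and whether Cyp26a1 differed from it was not tested. Cyp26a1, the inducible degrading enzyme, was at 4.95, 4.11 and 4.44 on the c-kit-positive arrays and 4.55, 4.85 and 4.74 on the c-kit-negative arrays. Its c-kit-positive replicates spanned the whole c-kit-negative range and all 6 values lay below the array medians. The difference of -0.21 had an interval of -0.71 to 0.28 (adjusted p = 0.633, limma).

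Rara, the broadly expressed receptor, was at 7.70, 7.17 and 7.11 on the c-kit-positive arrays and 7.62, 7.36 and 7.48 on the c-kit-negative arrays. The populations overlapped, with c-kit-positive replicate 1 the highest of all 6. The difference of -0.16 had an interval of -0.58 to 0.27 (adjusted p = 0.692, limma). Rarg, the receptor of cartilage and skin precursors, was at 6.15, 5.95 and 5.92 on the c-kit-positive arrays and 6.34, 6.35 and 6.49 on the c-kit-negative arrays. Its populations did not overlap, but the difference of -0.39 ± 0.13 (SE) was small and missed the threshold (adjusted p = 0.141, limma), with an interval of -0.69 to -0.08.

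The second degrading enzyme, Cyp26b1, which protects germ cells of the fetal testis from retinoic acid, was at 5.85, 5.68 and 5.87 on the c-kit-positive arrays and 5.89, 6.10 and 6.22 on the c-kit-negative arrays. The populations were separated by only 0.02 at their nearest values. The difference of -0.27 had an interval of -0.60 to 0.06 and did not pass (adjusted p = 0.339, limma).

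**Figure D2:**
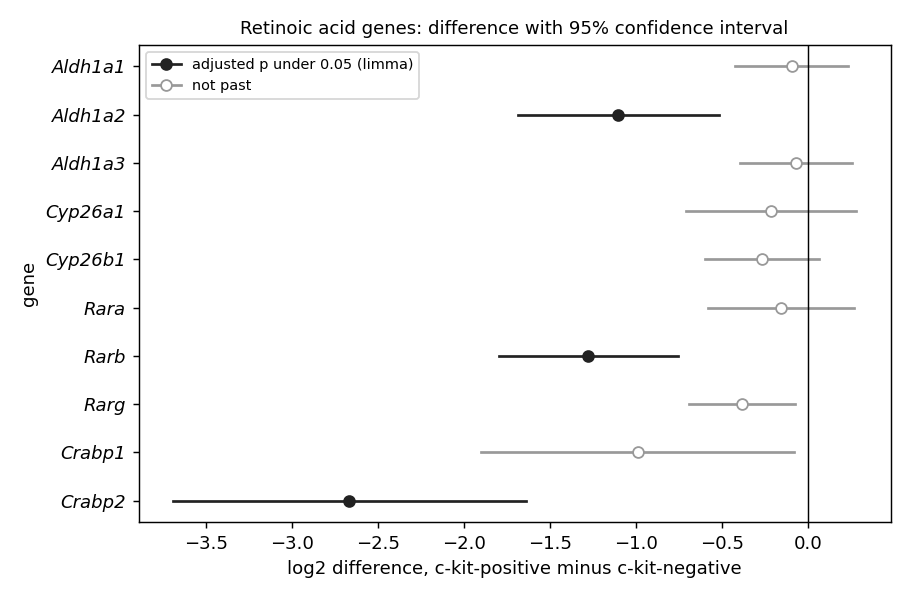
Difference between populations for each of the 10 genes (x axis, log2, c-kit-positive minus c-kit-negative). Bars are 95% confidence intervals. Filled points passed an adjusted p under 0.05 in limma, which are Aldh1a2 at -1.10, Rarb at -1.28 and Crabp2 at -2.67; the other 7 did not.

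Because a call for one gene and none for its relative does not show that they differ, 5 pairs within a role were also compared on the same arrays, a choice made after the members' values were seen. The c-kit-positive minus c-kit-negative difference of Rarb was lower than that of Rara by 1.12 and than that of Rarg by 0.89 on the log2 scale. That of Aldh1a2 was lower than that of Aldh1a1 by 1.01 and than that of Aldh1a3 by 1.03. That of Crabp2 was lower than that of Crabp1 by 1.68. In all 5 pairs the 3 c-kit-positive arrays lay beyond the 3 c-kit-negative arrays. Each pair set a called member against one not called, so this separation was partly built into the choice. Each two-sided exact permutation p was 0.1, also after Benjamini-Hochberg adjustment over the 5 pairs, and 0.1 is the smallest that 3 arrays against 3 allow, so none could pass.

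**Figure D3:**
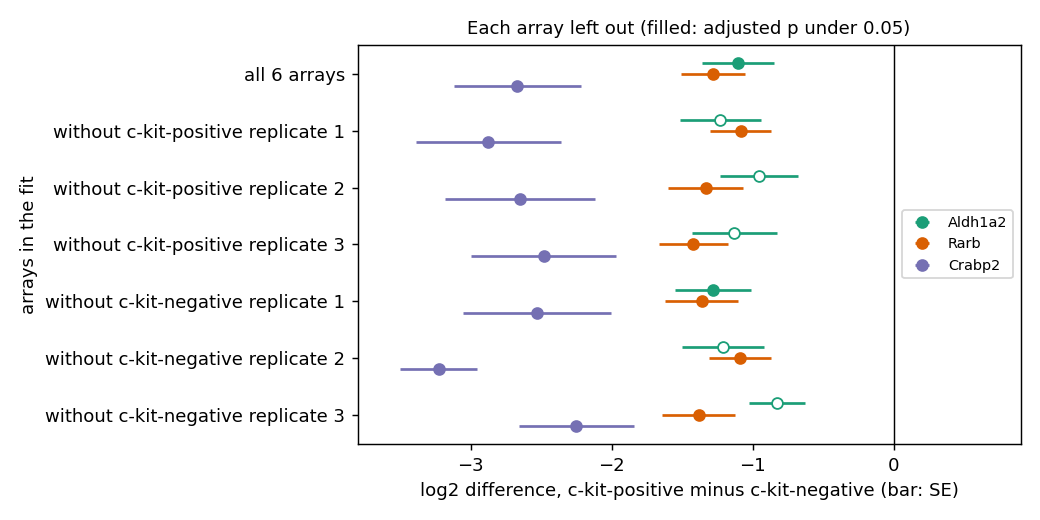
Differences (x axis, log2, c-kit-positive minus c-kit-negative; bars are the SE from limma) of Aldh1a2, Rarb and Crabp2 with all 6 arrays and with each array left out (y axis). Filled points have an adjusted p under 0.05: Rarb and Crabp2 passed in all 6 reduced fits and Aldh1a2 in 1.

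The rest of the pathway was described with a list of 38 further genes, of which 35 were measured. Of these, 3 were lower in c-kit-positive cells, 0 were higher (1 at an unadjusted p under 0.05, limma) and 32 did not pass, with a median difference of -0.02. Over all genes 4.70% were called lower and 2.71% higher, with a median difference of 0.07. The 3 genes act on retinol or retinal, and whether their number exceeds the share over all genes was not tested. Dhrs3 reduces retinal back to retinol and is itself induced by retinoic acid. It was at 6.94, 6.38 and 6.52 in c-kit-positive cells, against 8.43, 7.94 and 8.72 in c-kit-negative cells. It did not overlap and was 3.37-fold lower (-1.75 ± 0.23 on the log2 scale, SE, adjusted p = 0.00279, limma).

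Stra6, the membrane receptor that takes up retinol from its plasma carrier, was at 6.17, 6.06 and 6.10 on the c-kit-positive arrays and 7.45, 6.71 and 6.99 on the c-kit-negative arrays. The c-kit-positive arrays lay within 0.11 of each other and below all the others, and the gene was 1.92-fold lower (adjusted p = 0.0237, limma). Adh1, an alcohol dehydrogenase that can oxidise retinol, was at 5.21, 5.28 and 4.85 on the c-kit-positive arrays and 5.85, 6.05 and 7.07 on the c-kit-negative arrays, which was 2.31-fold lower (adjusted p = 0.0483, limma). Its c-kit-positive values lay below the array medians. Stra6 and Adh1 each passed in 1 of the 6 fits with 1 array left out, Stra6 without c-kit-negative replicate 2 and Adh1 without c-kit-negative replicate 1. The list then had 1 gene lower, Dhrs3, whichever c-kit-positive replicate was left out and without c-kit-negative replicate 3, and 2 genes without c-kit-negative replicate 1 or 2.

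Of 6 measured genes of retinol uptake and storage only Stra6 passed, and of 14 genes that interconvert retinol and retinal only Dhrs3 and Adh1 did. Rdh10, the retinol dehydrogenase that the mouse embryo needs to make retinal, was at 6.72, 6.36 and 7.54 on the c-kit-positive arrays and 6.92, 5.83 and 7.49 on the c-kit-negative arrays. Replicate 2 was lowest and replicate 3 highest in both populations, and the difference of 0.12 ± 0.43 (SE, adjusted p = 0.908, limma) leaves either direction possible. None of 5 further enzymes and carriers passed, and Aldh1a7 had the smallest p among them. Of 10 receptor partners and cofactors none passed, and Ncoa2, a nuclear receptor coactivator, had the smallest p, and differed by 0.33 with no overlap (adjusted p = 0.177, limma). Over these 2 groups, 2 of 15 genes had an unadjusted p under 0.05, Ncoa2 and the corepressor-bound deacetylase gene Hdac3. The partner Rxra was at 5.60 ± 0.31 on the c-kit-positive arrays and 5.99 ± 0.18 on the c-kit-negative arrays (adjusted p = 0.29, limma).

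Genes known to be induced by retinoic acid were followed with a list of 21, of which 18 were measured and 3 of those, Stra6, Dhrs3 and the corepressor gene Nrip1, also stand in the pathway list. In c-kit-positive cells 6 were lower, 0 higher (0 also at an unadjusted p under 0.05, limma) and 12 did not pass, with a median difference of -0.49. Over all genes 4.70% were called lower and 2.71% higher, with a median difference of 0.07. Without the 3 shared genes, 4 of 15 were lower. Meis2, a homeodomain partner of Hox proteins, was at 5.92, 5.86 and 5.35 in c-kit-positive cells, against 8.36, 8.33 and 8.59 in c-kit-negative cells. It was 6.58-fold lower (adjusted p = 8.83e-05, limma), with no overlap.

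The orphan receptor genes Nr2f1 and Nr2f2 were lower as well. Nr2f1 was at 4.77 ± 0.07 on the c-kit-positive arrays and 6.30 ± 0.17 on the c-kit-negative arrays (2.89-fold lower, adjusted p = 0.000443, limma). Nr2f2, which also sets venous identity, was at 5.27, 5.11 and 5.30 on the c-kit-positive arrays and 7.77, 7.17 and 7.75 on the c-kit-negative arrays, 5.05-fold lower. Neither gene overlapped between populations, and the c-kit-positive values of both lay below the array medians. Hoxb4, a Hox gene with a retinoic acid response element, was at 5.16, 4.69 and 5.05 on the c-kit-positive arrays and 5.85, 6.11 and 6.48 on the c-kit-negative arrays (2.27-fold lower, adjusted p = 0.0099, limma). Its c-kit-positive values also lay below the array medians. Hoxd4 was close to the threshold at -0.59 ± 0.15 on the log2 scale (SE) but did not pass it (adjusted p = 0.0508, limma).

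The germ cell targets gave the opposite sign without passing. Stra8, which retinoic acid induces at the entry into meiosis, was at 3.72, 3.77 and 4.30 on the c-kit-positive arrays and 3.84, 3.69 and 3.57 on the c-kit-negative arrays, with overlap (difference 0.24 ± 0.18, SE, adjusted p = 0.528, limma). All 6 Stra8 values lay below the array medians. Rec8, a meiotic cohesin gene, was at 5.21, 5.13 and 5.13 on the c-kit-positive arrays and 4.93, 5.04 and 4.78 on the c-kit-negative arrays. It did not overlap, but its difference of 0.24 ± 0.13 (SE) did not pass (adjusted p = 0.359, limma). As for Stra8, all 6 values lay below the array medians.

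**Figure D4:**
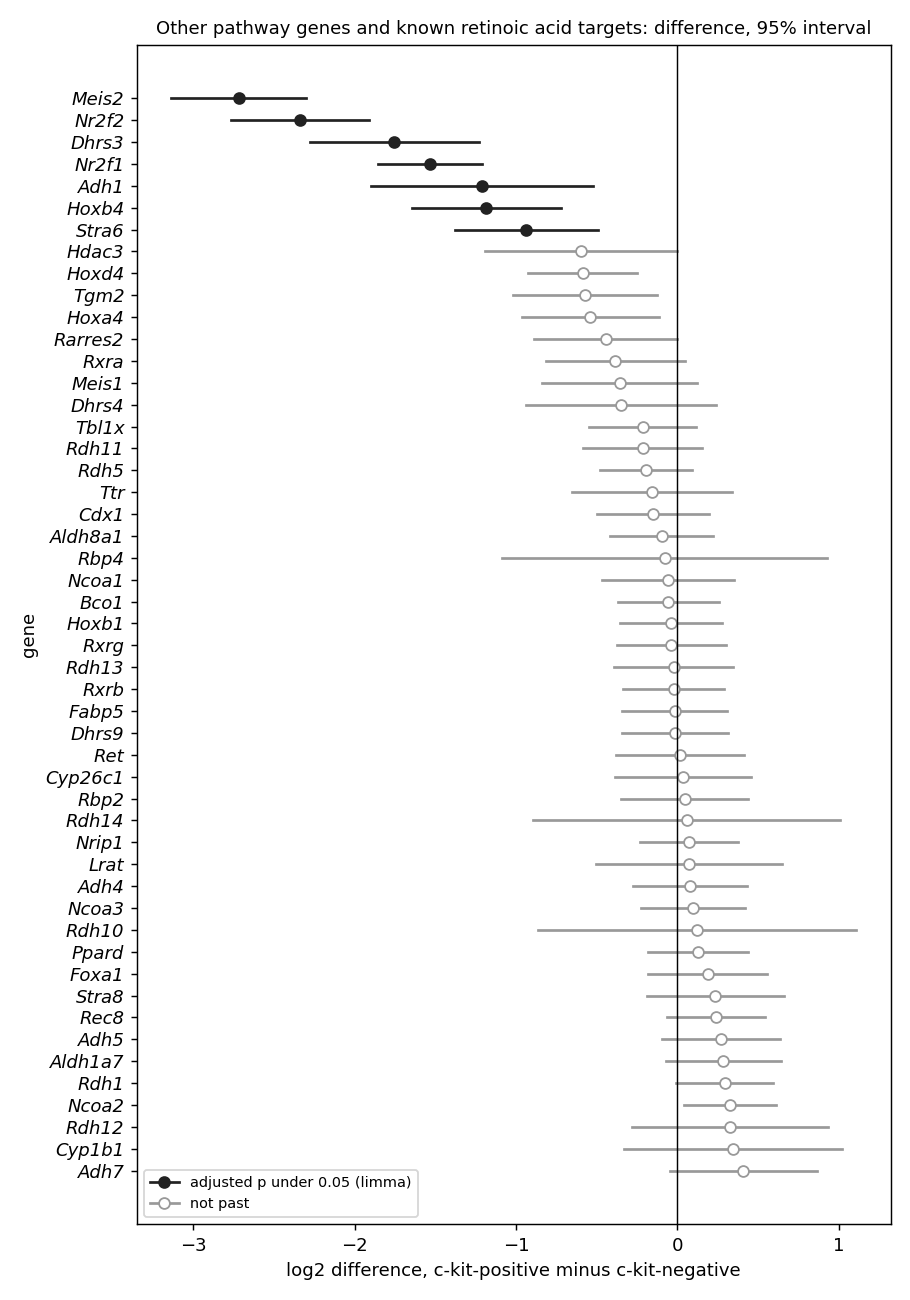
Differences (x axis, log2, c-kit-positive minus c-kit-negative), and 95% confidence intervals for the other measured genes of the pathway and the known retinoic acid targets (y axis), sorted by difference. Filled points passed an adjusted p under 0.05 in limma: Meis2, Nr2f2, Dhrs3, Nr2f1, Adh1, Hoxb4 and Stra6, all lower in c-kit-positive cells.

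Marker lists of cell types of the region were read on the same arrays, where 4.70% of all genes were called lower and 2.71% higher. The sort selected for CD31 and against CD45 and Ter119, which should remove macrophages and other CD45-positive blood cells, and mesenchymal, epithelial, neural and liver cells as far as they lack CD31. All 17 pan-endothelial genes were lower in c-kit-positive cells (median -2.23), and their mean level was 5.94 to 6.04 on c-kit-positive and 8.51 to 8.59 on c-kit-negative arrays. Pecam1, the gene of the CD31 sort, is among them. Of 15 mesenchymal and smooth muscle markers 8 were lower and 0 higher (median -1.07), at mean levels of 5.18 to 5.28 on the c-kit-positive arrays and 6.22 to 6.62 on the c-kit-negative arrays. Of 12 macrophage markers 3 were lower (median -0.72), at 5.72 to 5.93 on c-kit-positive and 6.24 to 7.36 on c-kit-negative arrays. Of 17 germ cell markers 14 were higher and 0 lower (median 1.33), at 8.13 to 8.36 on c-kit-positive and 6.86 to 6.95 on c-kit-negative arrays. Kit, whose protein set the sort, is among the 14, so its call is not independent of the sort. Its difference of 1.33 is also the list median. Of 12 haematopoietic genes 3 were higher and 0 lower, at 7.73 to 7.81 on c-kit-positive and 7.27 to 7.57 on c-kit-negative arrays.

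Of 16 mesonephric, gonadal and coelomic markers 2 were higher and 2 lower (median 0.01), at 5.65 to 5.75 on the c-kit-positive arrays and 5.65 to 5.91 on the c-kit-negative arrays. The higher were Cdh1 and Epcam, by 1.15 and 1.10, and the lower were Osr1 and Podxl, at -1.33 and -1.24 (log2). The even count does not show that cells of these tissues were equally frequent in both populations. Of 8 neural markers 1 was lower, at 5.20 to 5.28 on c-kit-positive and 5.28 to 5.68 on c-kit-negative arrays, and 0 of 7 hepatoblast markers passed. No marker was at 0, since the values are log2 intensities.

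**Figure D5:**
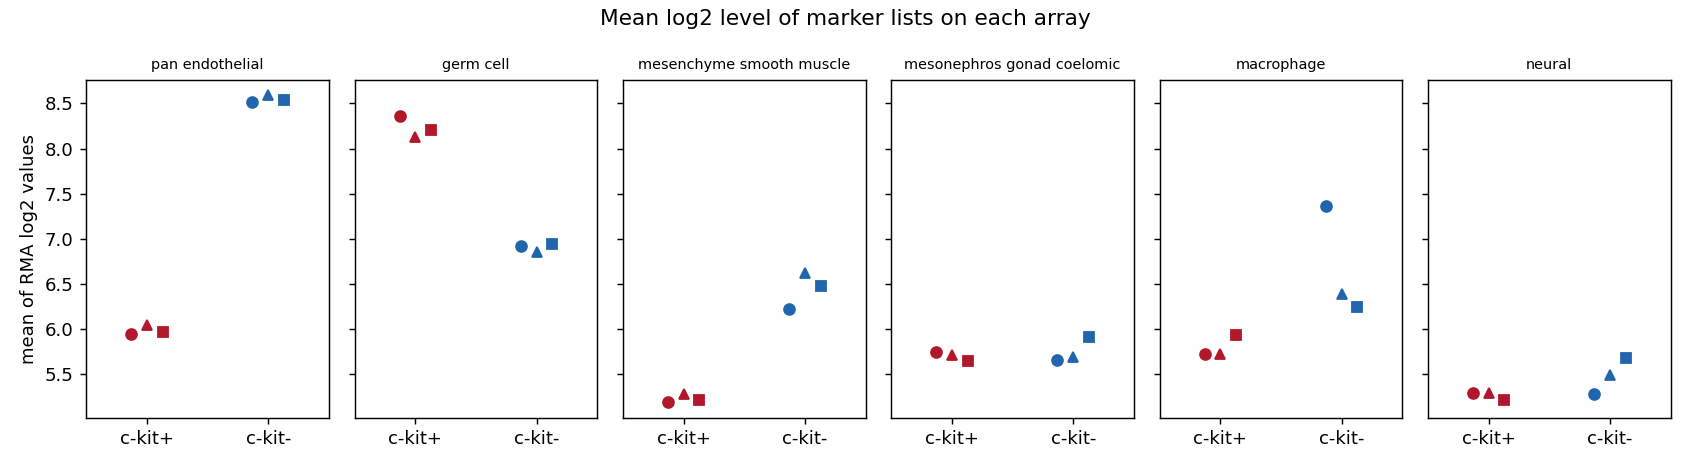
Mean RMA log2 level (y axis) of 6 marker lists on each array, c-kit-positive in red at the left and c-kit-negative in blue at the right, with circles, triangles and squares for replicates 1, 2 and 3. Pan-endothelial levels are 5.94 to 6.04 on c-kit-positive and 8.51 to 8.59 on c-kit-negative arrays, and germ cell levels are 8.13 to 8.36 on c-kit-positive and 6.86 to 6.95 on c-kit-negative arrays.

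The values of single replicates are set side by side here. Among the c-kit-negative arrays, Crabp1 and Crabp2 were highest on replicate 3 and lowest on replicate 2, and Aldh1a2 was highest on replicate 3. The mesenchymal markers averaged 6.22, 6.62 and 6.47 on c-kit-negative replicates 1, 2 and 3, the neural markers 5.28, 5.49 and 5.68, and the mesonephric, gonadal and coelomic markers 5.65, 5.68 and 5.91. Replicate 1 stood apart in the macrophage markers, which averaged 7.36, 6.38 and 6.24 on those arrays, and the haematopoietic genes averaged 7.57, 7.51 and 7.27. With 3 arrays no relation between these values was tested.

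Over the 6 arrays, the named genes whose values most resembled those of Crabp2, the member of smallest p, were Cyb561a3, Dgka and Aida, with Pearson correlations of 0.99992, 0.99934 and 0.99641. All 3 were lower in c-kit-positive cells, with differences of -0.66, -0.65 and -0.78 (adjusted p = 0.048, 0.0482 and 0.0336, limma). They were picked as the highest among all named genes, the arrays fall into 2 populations, and no test is attached to the correlation.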

How the data were processed

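Total RNA of 6 sorted samples, 3 per population, was amplified from 5 ng with a whole-transcript kit and hybridised to 1 array each, per the labels' protocols, which can compress ratios of dim genes. The authors deposited log2 values made with RMA, per the submitters' processing notes; the sources used here do not give its version or settings. Of 34760 probe sets, 21640 had 1 gene symbol in the platform annotation, 1321 several and 11799 were not listed. For genes with several probe sets the highest mean was used. Populations, taken from the labels, were compared in R 4.3.3 with limma 3.58.1 (lmFit, eBayes, no filter, no block), adjusted by Benjamini-Hochberg over 19937 genes. On simulated arrays of this comparison with 50 changed genes per size, 0% were recovered at a log2 change of 0.5, 40% at 1, 90% at 2 and 100% at 3, with 7 false calls. Fewer genes were changed there than the 1477 called in the data, which makes the threshold stricter, so these shares may not hold for the data. Members and lists were chosen with earlier results of these data known. Text names all members, pathway and target genes past the threshold (up to 6 a list, otherwise the smallest p), Kit, Pecam1 and the 3 genes most like Crabp2; marker lists are given by counts and levels. Named for their known role or after their values were seen were Ptprc, Rdh10, Rxra, Hdac3, Nrip1, Hoxd4, Stra8 and Rec8. Of the mesonephric, gonadal and coelomic list, the genes past the threshold are also named. Some listed genes are not reported here. Alternatives were quantile normalization, centring on the median, removal of the dimmest 30 or 50 percent of genes, averaged probe sets, a robust prior with trend, array weights, a replicate block and leaving out each array. Pairs within a role were compared by exact permutation with scipy 1.17.1.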

Additional observations from a re-analysis of the deposited data

How the results depend on the processing

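Rarb and Crabp2 passed in all 14 alternatives, at differences of -1.42 to -1.08 and -3.23 to -2.25, and Aldh1a2 in all 8 that kept every array. Leaving out 1 array brought the 540 higher genes to between 276 and 369, and the 3 lower pathway genes to 1 or 2. Fewer arrays were in those fits, and the cause was not tested otherwise. Differences changed sign with 1 array left out for Aldh1a1 (range -0.15 to 0.0058), Aldh1a3 (-0.14 to 0.022) and Rdh10 (-0.34 to 0.49), which passed under no alternative. Hoxd4 passed in 5 of 13 alternatives. Adh1 did not pass with array weights (adjusted p = 0.058, limma). With the replicate block Crabp1 passed at -0.99 ± 0.17 (SE, adjusted p = 0.017, limma) and Adh1 did not (adjusted p = 0.0708, limma). Labels do not say that replicate numbers mark a shared litter or day, deviations of same-numbered arrays correlated at 0.0007, 0.0239 and 0.059 across genes, and not every array correlated best with its own number.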
